A study of Mus musculus with 2 samples.

Results

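Of the 8 tumors of the dFLEx CDS mouse model of CIC::DUX4 sarcoma, the 4 treated with Minnelide were compared by response, 2 responder tumors against 2 nonresponder tumors, by single-nucleus RNA-seq (snRNA-seq). The words responder and nonresponder come from the names of the deposited matrices. GEO's labels give the treatment of each tumor but not its response, and the growth curves that the study shows for the mice chosen for sequencing were not used here. Nuclei with at least 1000 unique molecular identifiers (UMIs) and under 5% of UMIs in mitochondrial genes were kept. These were 11449 and 7544 nuclei in responder 1 and responder 2 and 9830 and 4846 nuclei in nonresponder 1 and nonresponder 2, or 33669 of the 60121 kept nuclei of all 8 tumors.

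All 4 tumors had received Minnelide at 0.42 mg/kg over 21 days. The model carries CIC::DUX4 in an inverted cassette that is turned on by Cre and FLPE from plasmids electroporated into hind limb muscle of immunocompetent mice, so each tumor grew in place within muscle. The genotype dFLEx CDS +/- stands in the labels of the 4 untreated tumors, whose values are given below as a range, without a test. The age and sex of each animal, and whether each tumor came from its own animal, are not given in the labels, so the p-values below measure the spread between these tumors. The numbers 1 and 2 are names only.

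Minnelide is a phosphorylated form of triptolide made to dissolve in water. Phosphatases release triptolide, which binds XPB (Ercc3), the DNA translocase subunit of the general transcription factor TFIIH, and blocks transcription initiation by RNA polymerase II. CIC::DUX4 joins the DNA-binding part of the repressor CIC to an activating part of DUX4 and so turns on genes that CIC normally holds down, among them the ETS factors Etv1, Etv4 and Etv5.

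The deposited matrices held 73211599 and 30784787 UMIs in the responders and 44146885 and 20054447 in the nonresponders. The median of kept nuclei was 4037 and 2924.5 UMIs against 3356 and 2933 UMIs. The barcodes of each of the 4 tumors carried constant bases that differed between them, so 0 shared barcodes were fixed in advance. The median share of mitochondrial UMIs was lower in both responders (0.65% and 0.234%) than in both nonresponders (0.79% and 0.695%), and the part of this in the results below was not tested. With 2 tumors against 2, a two-sided exact permutation test cannot go below p = 0.333.

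The nuclei formed 33 clusters. Of these, 14 raised the tumor markers Etv1, Etv4, Etv5, Shc3 and Shc4, 5 raised markers of skeletal muscle fibers, 3 those of fibroblasts, 3 those of endothelial cells and 2 those of macrophages, and they are called tumor-like, myocyte-like and so on. Osteoclast-like and pericyte-like nuclei formed 1 cluster each, and 3 clusters with no class of their own stayed unnamed. The last cluster, of 52 nuclei, had under 30 nuclei in every tumor and was put in no class. Tumor-like nuclei separated by tumor: the cluster c0 of 6481 nuclei came to 98.4% from responder 1.

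Responder tumors held a larger share of fibroblast-like, macrophage-like and myocyte-like nuclei than nonresponder tumors, and their mean share of tumor-like nuclei was smaller. Tumor-like nuclei made up 73.0% and 23.4% of the responders and 75.7% and 84.1% of the nonresponders (48.2% ± 35.1 against 79.9% ± 5.97, SD, n = 2 each), with responder 1 close to nonresponder 1. A tumor-like cluster led by Mecom and Ldb2 held 722 nuclei of nonresponder 2. It raised all 5 tumor markers but also markers of 5 further classes, and 4 of its 10 leading genes (Mecom, Ldb2, Cdh13 and Rapgef5) also led the largest endothelial-like cluster, so its class is uncertain. Without it nonresponder 2 stood at 69.2% tumor-like nuclei, and the groups overlapped. Where clusters that also raised markers of a second class were left unnamed, only c0 of the tumor-like clusters kept its name, and the mean difference turned from -31.7 to 27.7 percentage points. Fibroblast-like nuclei made up 9.91% and 13.6% against 4.18% and 5.86%, and macrophage-like nuclei 2.86% and 2.24% against 1.59% and 1.26%. In both classes the 2 groups did not overlap. The fibroblast-like share lay between 10.5% and 16.4% in untreated tumors, above both nonresponders and responder 1.

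Myocyte-like nuclei made up 3.97% of responder 1 and 54.3% of responder 2, against 0.732% and 1.01% of the nonresponders and 3.98% to 25.4% of untreated tumors. Responder 2 therefore stood apart, with more muscle than tumor in the sample. Its myocyte-like nuclei came mostly from 2 clusters, one of which (2548 nuclei, led by Agbl1, Fgf13 and Dlg2) was 92.5% from that tumor. Among nuclei that were not myocyte-like, fibroblast-like nuclei still stood at 10.3 and 29.8 per 100 in the responders against 4.21 and 5.92 in the nonresponders, and macrophage-like nuclei at 2.98 and 4.90 against 1.60 and 1.27.

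Endothelial-like shares overlapped (3.97% and 4.73% against 2.86% and 5.34%), as did osteoclast-like shares (1.00% and 0.490% against 0.621% and 2.17%). Pericyte-like nuclei made up 1.58% and 1.29% of the responders and 1.27% and 0.248% of the nonresponders. The unnamed clusters took 3.62% of responder 1 and 13.03% of nonresponder 1, with 0 of 7544 nuclei of responder 2 and 0 of 4846 nuclei of nonresponder 2, which allows shares of up to 0.0398% and 0.0619%. No class share reached significance by the two-sided exact permutation test (p = 0.333, adjusted p = 0.533 over 8 classes, for each share that did not overlap). The 95% exact binomial interval, which covers counting error only, was 9.37 to 10.5% and 12.8 to 14.4% for the fibroblast-like share of the responders, and 3.79 to 4.60% and 5.22 to 6.56% for that of the nonresponders.

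**Figure D1:**
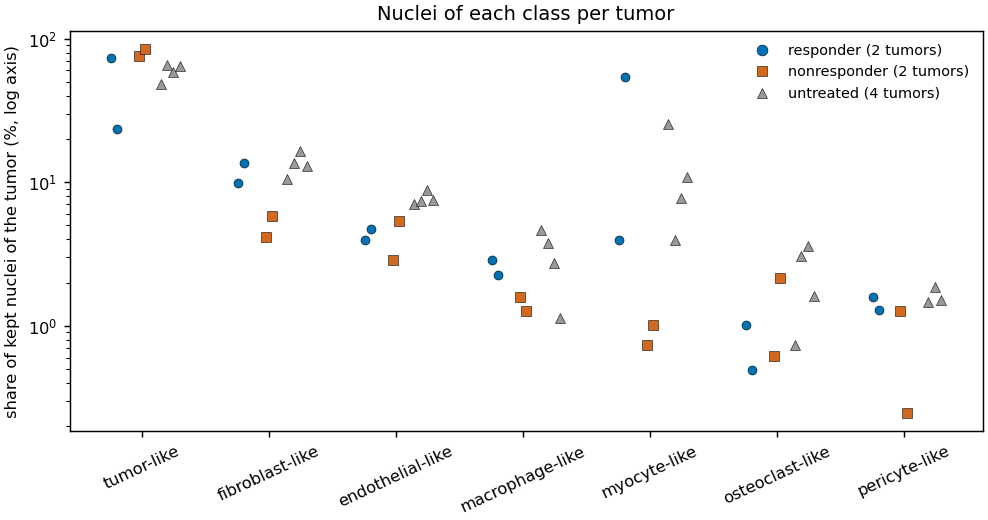
Share of kept nuclei (%, log axis) in each class for every tumor: 2 responder, 2 nonresponder and 4 untreated tumors, 1 point each. Fibroblast-like and macrophage-like points of both responders lie above those of both nonresponders, and the myocyte-like share of responder 2 (54.3%) is the highest in its class; untreated 1 had 0 pericyte-like nuclei and is not drawn there.

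Counts were summed per tumor and tested with edgeR's quasi-likelihood test with Benjamini-Hochberg adjustment. Over all nuclei no gene was called (0 of 13999 genes, 0%), while 406 genes had an unadjusted p under 0.05. The alternative DESeq2 test called 135 of 13456 genes (1%). Genes with both responders above both nonresponders were 17.2% of those tested, and genes with both below were 13.6%. The myocyte-like share moved with these sums. All 10 muscle fiber markers had higher values in the responders (median log2 fold change 3.91). Titin (Ttn), the giant spring protein of the sarcomere, stood at 1365 and 14424 counts per 1000000 UMIs (CPM) against 424 and 477 CPM, nebulin (Neb) at 409 and 4989 against 118 and 175 CPM, and triadin (Trdn) at 130 and 1356 against 46.3 and 50.1 CPM. Of 28 gene lists, muscle atrophy and denervation had the largest median (3.13, with 13 of 15 genes higher), which was 0.36 without responder 2.

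The genes with the smallest p over all nuclei were not called. Type IIa myosin heavy chain (Myh2) stood at 74.5 and 185 against 3.59 and 4.10 CPM. The neuronal leucine-rich repeat protein Lrrn1 stood at 5.90 and 9.49 against 0.648 and 0.830 CPM, the cartilage matrix protein Cilp at 23.4 and 25.3 against 9.03 and 9.08 CPM, and the myogenic progenitor factor Pax3 at 70.2 and 14.2 against 0.694 and 0.519 CPM. These 4 genes were higher in both responders. In the other direction were the semaphorin Sema6d (126 and 103 against 228 and 216 CPM), Spx (456 and 203 against 1730 and 1681 CPM), Calcrl (147 and 84.9 against 367 and 318 CPM) and the tetraspanin Tspan18 (136 and 122 against 566 and 316 CPM).

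Within tumor-like nuclei, the responders had lower values of the secreted peptide Spx and the receptor Calcrl and higher values of Mctp1, Klhl32 and Rtn1. There were 8354 and 1763 tumor-like nuclei in the responders and 7438 and 4076 in the nonresponders. Their median UMIs (4158 and 2609 against 3718.5 and 2944.5) and their median genes detected when thinned to 1000 UMIs (765 and 741 against 749 and 742) overlapped between the groups. edgeR called no gene (0 of 13507, 0%). An unadjusted p under 0.05 was found for 312 genes, and 41 of 13245 (0.31%) were called by DESeq2. Both responders lay above both nonresponders in 16.2% of the genes tested and below in 10.4%.

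Spx encodes spexin, a short secreted neuropeptide, at chr6:142359167-142365456 on the plus strand of GRCm39. It stood at 481 and 318 CPM in the responders and 1789 and 1852 CPM in the nonresponders, with 580 to 1025 CPM in untreated tumors. The responders thus lay below, and the nonresponders above, every untreated tumor. The log2 fold change of Spx was -2.22 ± 0.27 (SE), with an edgeR adjusted p of 0.999 and a DESeq2 adjusted p of 3.32e-09.

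Calcrl encodes the receptor for adrenomedullin and, with its partner RAMP1, calcitonin gene-related peptide (chr2:84160957-84255755, minus strand). It stood at 125 and 88.2 against 366 and 309 CPM (log2 fold change -1.69 ± 0.23, edgeR adjusted p = 0.999), within 163 to 467 CPM of untreated tumors for the nonresponders only. Galnt3, a glycosyltransferase that starts mucin-type O-glycans, was at low counts, with 0.253 and 0.538 against 4.18 and 6.97 CPM. The cytokine receptor subunit Il31ra stood at 41.2 and 39.8 against 88.2 and 74.3 CPM (-1.03 ± 0.16).

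Mctp1, a calcium-binding membrane protein (chr13:76532259-77181399, plus strand), stood at 47.6 and 36.4 CPM in the responders and 11.6 and 12.7 CPM in the nonresponders (1.77 ± 0.21, edgeR adjusted p = 0.999). Untreated tumors ranged from 23.9 to 97.2 CPM, so both nonresponders lay below them. The top of that range was untreated 1 alone. The other untreated tumors stood at 27.8, 32.5 and 23.9 CPM, below both responders. Mctp1 stood far higher in endothelial-like nuclei (961 and 187 against 279 and 80.6 CPM) and macrophage-like nuclei (240 and 781 against 391 and 597 CPM), where the groups overlapped. The Kelch family gene Klhl32 (chr4:24612527-24851353, minus strand) stood at 191 and 135 against 45.6 and 45.5 CPM (1.81 ± 0.22). Its untreated range, 4.35 to 217 CPM, covered both groups through untreated 1 alone (4.35 CPM). The other untreated tumors stood at 85.1, 149 and 217 CPM, above both nonresponders. The endoplasmic reticulum shaping protein Rtn1 stood at 104 and 96.6 against 44.3 and 48.6 CPM (1.08 ± 0.15). Klhl32 was also higher in both responders in fibroblast-like, endothelial-like, macrophage-like and myocyte-like nuclei. The part of RNA from other classes in the Mctp1 and Klhl32 values was not tested.

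**Figure D2:**
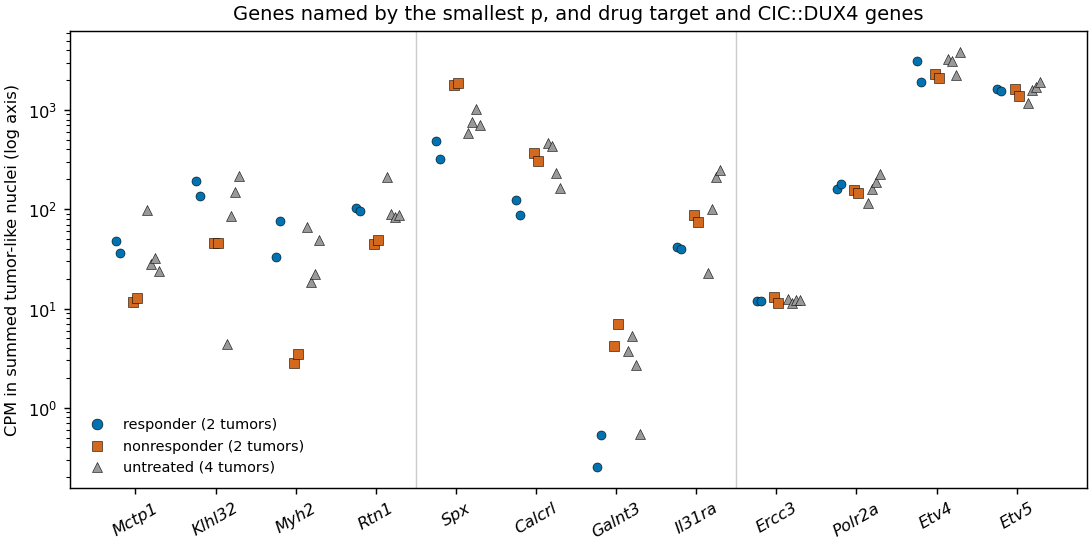
CPM in summed tumor-like nuclei (log axis) for each tumor. Left, 4 genes with the smallest p that were higher in responders; middle, 4 that were lower; right, the drug target Ercc3 and the genes Polr2a, Etv4 and Etv5, in which the groups lie close together. No gene shown was called by edgeR.

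Myh2 had 33.0 and 75.5 against 2.82 and 3.51 CPM in tumor-like nuclei (4.07 ± 0.52, edgeR adjusted p = 0.999). Thinned to 1000 UMIs, 4.29% and 7.43% of the responders' tumor-like nuclei had a Myh2 UMI, against 5.81% and 12.4% of their macrophage-like nuclei, a class that should lack this muscle myosin (median depth 4158 and 2609 UMIs in tumor-like nuclei and 3278 and 1729 UMIs in macrophage-like nuclei). In both responders the tumor-like share lay below the macrophage-like one. Muscle RNA was present across the classes of the responders. The 10 myocyte markers summed to 923 and 6444 CPM in the responders' tumor-like nuclei and 411 and 698 CPM in those of the nonresponders. Of these, 9 of 10 were higher and 6 did not overlap (beside 16.2% of all genes). Among the 6 were Ttn (530 and 4264 against 169 and 223 CPM) and Neb (142 and 1044 against 43.6 and 76.8 CPM), while Ryr1 was not higher (85.8 and 135 against 116 and 233 CPM). Only 1 of 1763 tumor-like nuclei of responder 2 had no UMI in these markers, against 646 of 8354 in responder 1 and 2269 of 7438 and 890 of 4076 in the nonresponders.

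The Spx difference ran through every class. In fibroblast-like nuclei Spx stood at 339 and 192 against 740 and 668 CPM, in endothelial-like nuclei at 243 and 200 against 734 and 484 CPM, and in macrophage-like nuclei at 372 and 214 against 1247 and 997 CPM. Thinned to 1000 UMIs, 34.4% and 25.3% of tumor-like nuclei had an Spx UMI against 76.6% and 75.2% (75.7% and 49.1% against 97.8% and 94.0% unthinned). The share in macrophage-like nuclei was 32.3% and 17.9% against 70.6% and 70.2%. Within each tumor the 2 classes lay closer to each other than the response groups did, and whether macrophage-like nuclei express Spx or carry RNA of tumor cells cannot be told apart here.

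**Figure D3:**
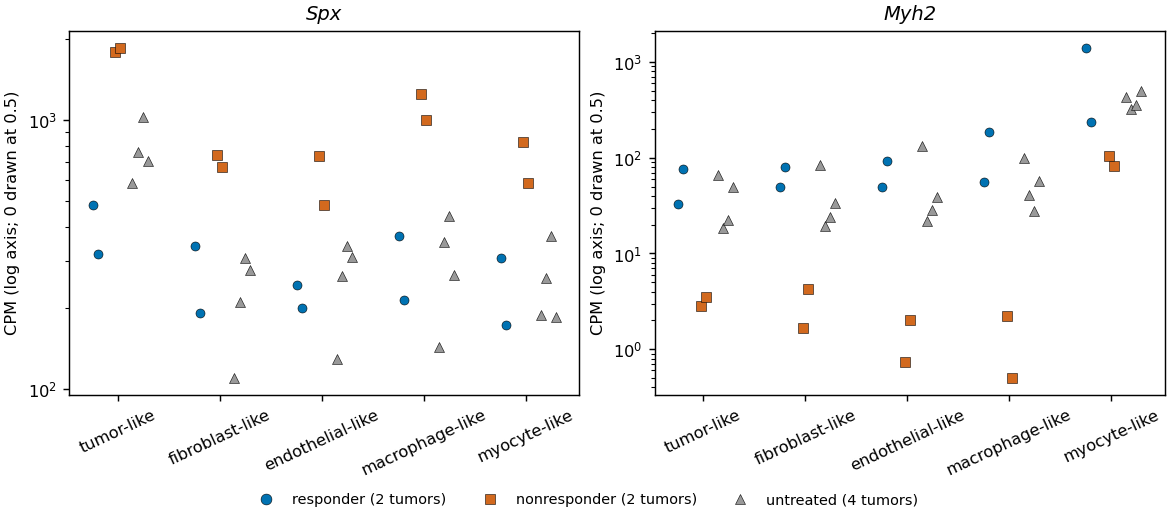
CPM of Spx (left) and Myh2 (right) in 5 classes of nuclei (log axes), 1 point per tumor. In every class both responders lie below both nonresponders for Spx and above them for Myh2; nonresponder 2 had 0 Myh2 UMIs in macrophage-like nuclei and is drawn at the value given on the axis.

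The drug target and the fusion's program showed little difference between the groups in tumor-like nuclei. Ercc3, the target of triptolide, stood at 11.9 and 11.8 against 13.1 and 11.4 CPM (log2 fold change -0.07 ± 0.21, edgeR adjusted p = 0.999), and Polr2a, the largest subunit of RNA polymerase II, at 161 and 178 against 157 and 147 CPM. Of 22 genes of TFIIH and RNA polymerase II, 10 had higher and 12 lower values, with a median log2 fold change of -0.03 beside 0.00 over all genes tested. Of these, 6 were higher and 2 lower without overlap (beside 16.2% and 10.4% of all genes), and 0 were called. The short-lived survival protein Mcl1 stood at 51.7 and 68.8 against 56.9 and 61.4 CPM.

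Etv4 stood at 3148 and 1923 against 2299 and 2121 CPM, Etv5 at 1609 and 1535 against 1628 and 1394 CPM, and Etv1 at 6713 and 4029 against 5521 and 4849 CPM. In each of the 3 the groups overlapped. These genes are also markers that named the tumor-like clusters, so their likeness was partly set by that choice. The neuropeptide precursor Vgf stood at 2777 and 1211 against 3304 and 1498 CPM, the ERK phosphatase Dusp4 at 246 and 85.7 against 252 and 181 CPM, and Myc at 11.0 and 7.17 against 13.5 and 11.2 CPM. Of the 15 genes listed for CIC::DUX4 activity, 4 had higher and 11 lower values (median -0.09). Lower without overlap were 2 (beside 10.4% of all genes), and 0 were called. The gel-forming mucin Muc5ac had the smallest of their p-values, at 2158 and 2580 against 3762 and 2993 CPM (-0.54 ± 0.24).

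Genes for the activation of the prodrug and for drug efflux had mostly higher values in the responders (10 of 12 tested, median 0.23, 0 called), with a median of 0.09 without nonresponder 1 and likewise 0.09 without responder 2. The efflux pump Abcb1a, a P-glycoprotein known to be able to export many drugs, stood at 3.92 and 15.2 against 3.18 and 3.94 CPM (1.37 ± 0.74, and 0.086 without responder 2), Abcc5 at 55.3 and 55.0 against 42.6 and 41.0 CPM and Abcg2 at 98.2 and 65.4 against 38.7 and 62.1 CPM. The tissue-nonspecific alkaline phosphatase Alpl was 1 of the 2 genes with lower values, at 4.71 and 7.53 against 9.70 and 24.3 CPM (-1.53 ± 0.57). Both responders and nonresponder 1 lay below the untreated range of Alpl, 13.2 to 58.8 CPM.

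Hypoxia and glycolysis genes had lower values in the responders. Of 23 features tested, 21 had lower values, 9 without overlap (beside 10.4% of all genes), and 2 had higher ones, with a median of -0.44 and 0 calls. P4ha1, a prolyl hydroxylase subunit for collagen, stood at 340 and 256 against 431 and 456 CPM (-0.60 ± 0.20). Muscle pyruvate kinase (Pkm) stood at 165 and 167 against 208 and 282 CPM, the phosphofructokinase Pfkl at 28.4 and 22.8 against 33.3 and 54.1 CPM, and P4ha2 at 56.1 and 53.4 against 67.2 and 71.1 CPM. The list summed to 1609 and 1493 against 1871 and 2280 CPM, within 1550 to 2308 CPM of untreated tumors for all but responder 2.

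Promoters of this list often held the core of the hypoxia response element. The 5 letters ACGTG, on either strand (CACGT on the other), occurred within 250 bases before to 50 bases after the start of 16 of 22 genes (72.7%), against 28.4% of genes tested in tumor-like nuclei and 21.8% of all 27025 RefSeq promoters. A match is a description of the letters and does not show a bound site. The promoters of 3 members are shown because they had the smallest p of the list and a match. The stretches are 120 bases from RefSeq on GRCm38.p6, 5′ to 3′ on the plus strand, and capitals mark the match. In P4ha1 (chr10:59323176-59323295) it lay 16 bases before the start, in P4ha2 (chr11:54100786-54100905) 78 and in Pkm (chr9:59657092-59657211) 75.
P4ha1: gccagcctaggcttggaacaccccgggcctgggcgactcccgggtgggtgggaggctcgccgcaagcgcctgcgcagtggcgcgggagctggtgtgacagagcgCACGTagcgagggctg
P4ha2: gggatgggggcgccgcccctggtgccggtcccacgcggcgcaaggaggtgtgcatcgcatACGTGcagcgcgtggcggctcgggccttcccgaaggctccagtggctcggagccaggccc
Pkm: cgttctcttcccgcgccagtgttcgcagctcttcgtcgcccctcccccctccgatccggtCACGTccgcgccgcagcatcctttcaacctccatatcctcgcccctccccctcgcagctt

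Angiogenic ligands and receptors had lower values in the responders for 18 of 18 genes tested (8 without overlap, beside 10.4% of all genes, median -0.70, 0 called). The lymphatic growth factor Vegfc stood at 18.2 and 17.4 against 25.5 and 27.8 CPM (-0.61), but had a log2 fold change of 0.065 once the cluster led by Mecom and Ldb2, whose class is uncertain, was left out. Without that cluster the median was -0.50 for this list, -0.42 for hypoxia and glycolysis, -0.22 for collagen and matrix, -0.28 for matrix proteases and -0.36 for p53 targets. The apelin receptor Aplnr stood at 17.1 and 10.4 against 21.3 and 23.6 CPM, its ligand Apln at 9.12 and 3.58 against 10.6 and 33.4 CPM, and the proteoglycan Esm1 at 3.74 and 1.79 against 4.21 and 12.97 CPM. The markers of endothelial cells were lower for 6 of 11 genes in the same nuclei (median -0.28), and Flt1, Kdr, Tek and Tie1 belong to both lists.

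Genes of the collagen matrix followed the same direction, with 22 of 25 genes lower, 9 without overlap (beside 10.4% of all genes) and a median of -0.30. The basement membrane collagens Col4a2 (131 and 108 against 158 and 239 CPM) and Col4a1 (240 and 129 against 268 and 361 CPM), the proteoglycan Vcan (3255 and 3809 against 5480 and 5088 CPM) and Col6a1 (34.96 and 31.2 against 39.0 and 50.6 CPM) had the smallest p-values. Matrix proteases were lower for 18 of 20 genes (4 without overlap, beside 10.4% of all genes, median -0.37). Among them the gelatinase Mmp9 stood at 32.2 and 15.6 against 46.1 and 54.2 CPM. No gene of either list was called by edgeR. Fibroblast markers in these nuclei were lower for 7 of 9 genes (median -0.30), but Col1a1, Col1a2, Col3a1, Fbn1, Postn and Col6a3 also belong to the collagen list.

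p53 targets had lower values for 18 of 22 genes (8 without overlap, beside 10.4% of all genes, median -0.27, 0 called). The pro-apoptotic BH3 protein Pmaip1 (Noxa) stood at 12.4 and 13.1 against 17.8 and 20.8 CPM (-0.63), the p53 ligase Mdm2 at 85.6 and 88.4 against 113 and 110 CPM (-0.39), the stress protein Sesn2 at 5.72 and 6.45 against 10.7 and 8.66 CPM, and Gtse1 at 8.03 and 6.45 against 12.2 and 10.2 CPM. In these 4 genes both responders lay below both nonresponders. Over 16 settings, which included each tumor left out in turn, the median stayed below 0 for hypoxia and glycolysis (-0.64 to -0.18), angiogenic (-0.79 to -0.32), matrix (-0.47 to -0.09) and p53 target genes (-0.49 to -0.13). The weakest medians of the hypoxia and angiogenic lists came without nonresponder 2, where 17 of 23 and 14 of 18 genes were lower. That of the p53 targets came without nonresponder 1, where 15 of 22 genes were lower. The BCL2 and IAP families were lower for 18 of 23 genes (5 without overlap, beside 10.4% of all genes, median -0.11). Among them the BH3 protein Bcl2l11 (Bim) stood at 55.7 and 55.0 against 64.9 and 94.4 CPM.

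Mitotic genes were lower for 27 of 29 genes with a small median (-0.16), which was 0.06 without responder 2 and -0.48 without responder 1. The proliferation antigen Mki67 stood at 172 and 106 against 190 and 184 CPM. Genes of DNA replication and S phase had a median of -0.04 over 30 genes. Neither list was called.

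Myogenic factors had higher values for 11 of 14 genes (3 without overlap, beside 16.2% of all genes, median 0.31). Mef2c, a muscle transcription factor, stood at 327 and 394 against 168 and 182 CPM (1.01 ± 0.18), and Pax3 at 77.3 and 4.84 against 0.641 and 0.121 CPM. The Pax3 level of responder 1 was also above every untreated tumor (39.7 CPM at most). Thinned to 1000 UMIs, 6.29% of responder 1's tumor-like nuclei had a Pax3 UMI and 5.89% of its macrophage-like nuclei did. Myog stood at 2.32 and 10.9 against 0.530 and 1.39 CPM and Myf6 at 1.31 and 36.0 against 0.976 and 1.33 CPM. The myocyte markers of these nuclei moved the same way, and their part in it was not tested.

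**Figure D4:**
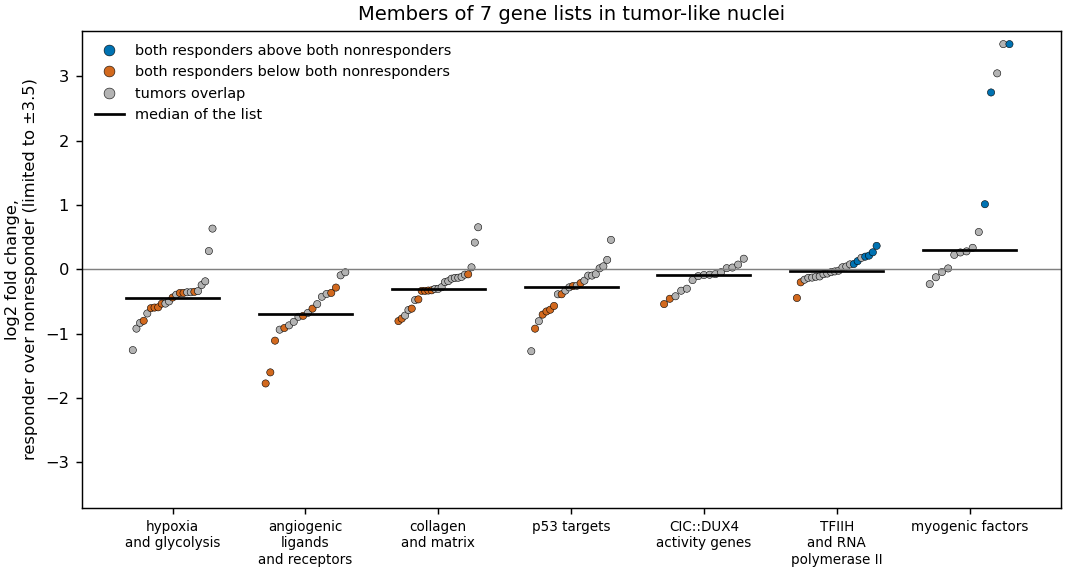
Log2 fold change, responder over nonresponder, of each member of 7 gene lists in tumor-like nuclei, with values past the limit drawn at it, and the median as a line. Points are colored by whether the 2 groups of tumors overlap; the 18 angiogenic genes all lie below 0, with a median of -0.70.

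Fibroblast-like nuclei of the responders had lower values of collagens and matrix proteases. No gene was called by edgeR (0 of 10999, 0%), although 450 had an unadjusted p under 0.05. By DESeq2, 25 of 7800 genes (0.321%) were called. Both responders lay above both nonresponders in 16.5% of genes and below in 14.2%. Collagen and matrix genes were lower for 23 of 25 genes (9 without overlap, median -0.56 beside 0.00 over all genes), among them Fbn2 (97.7 and 95.3 against 158 and 230 CPM), Col12a1 (1978 and 1345 against 2462 and 3268 CPM) and Col5a1 (610 and 613 against 816 and 981 CPM). Matrix proteases and their inhibitors were lower for 17 of 20 genes (7 without overlap, median -0.51). Without nonresponder 2 both medians were -0.18, with 17 collagen and matrix genes lower and 8 higher, and 12 proteases lower and 8 higher.

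The collagenase Mmp13 stood at 87.6 and 114 against 210 and 771 CPM (-2.27 ± 0.64), with 253 to 2006 CPM in untreated tumors. Both responders and nonresponder 1 lay below that range. Alpl showed the same order in fibroblast-like as in tumor-like nuclei, at 29.4 and 31.8 against 87.9 and 133 CPM (-1.85 ± 0.27, edgeR adjusted p = 0.799, untreated 92.6 to 350). The insulin receptor adaptor Grb14 stood at 97.4 and 102 against 245 and 326 CPM, the LIM domain protein Csrp1 at 34.2 and 34.2 against 85.7 and 91.6 CPM, and the chitinase-like protein Chil1 at 0.739 and 1.06 against 10.4 and 13.8 CPM. Chil1 rested on few UMIs in the responders and passed the filter on low counts through the nonresponders, where it was high.

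The genes with the smallest p in the other direction were the complement-type membrane protein Csmd2 (132 and 142 against 26.9 and 22.4 CPM, 2.45 ± 0.23, edgeR adjusted p = 0.577), the delta-catenin Ctnnd2 (265 and 292 against 83.5 and 80.9 CPM), Myh2 (49.3 and 79.1 against 1.65 and 4.26 CPM) and Klhl32 (69.8 and 50.1 against 13.7 and 11.7 CPM). Myh2 rested on 3 and 4 UMIs in the nonresponders and passed the filter on low counts through the responders. CIC::DUX4 activity genes had higher values for 12 of 15 genes in these nuclei (8 without overlap, beside 16.5% of all genes, median 0.50), such as the adaptor Shc3 (1011 and 800 against 438 and 475 CPM) and Etv5 (745 and 586 against 378 and 351 CPM). The 5 tumor markers are all among these 15 genes. All 5 were higher and none overlapped, and the markers summed to 7194 and 4601 against 3387 and 3167 CPM. Their part in the differences of fibroblast-like nuclei was not tested.

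The 28 interferon response genes with a feature summed to 285 and 243 CPM in fibroblast-like nuclei of the responders against 374 and 405 CPM, and 0 were called. Irf1, a transcription factor of that response, stood at 13.5 and 8.83 against 20.3 and 25.6 CPM. Immediate early genes were lower for 19 of 20 genes (median -0.84), but their median was 0.02 without nonresponder 2. The response difference was tested between tumor-like and fibroblast-like nuclei of the same tumors by an interaction term, and 0 of 12657 genes (0%) were called by edgeR and 696 had an unadjusted p under 0.05 (DESeq2 was not run on it). The smallest p-values were those of Aoah (-3.87), Arhgef3 (-1.58) and Csmd2 (-1.46, adjusted p = 0.457).

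Endothelial-like nuclei of the responders had lower values of angiogenic genes and higher values of collagens. They numbered 455 and 357 in the responders and 281 and 259 in the nonresponders. Of 9417 genes, 0 (0%) were called by edgeR and 621 had an unadjusted p under 0.05, while 27 of 8504 (0.317%) were called by DESeq2. Without responder 1, edgeR called 482 genes, and without responder 2 it called 88. Both responders lay above both nonresponders in 23.7% of genes and below in 13.7%. Angiogenic ligands and receptors were lower for 13 of 17 genes (10 without overlap, median -0.47, 0 called). In the same nuclei endothelial markers, of which Flt1, Kdr, Tek and Tie1 are also in the angiogenic list, were lower for 8 of 11 genes (6 without overlap, median -0.30). Tumor markers were higher for 5 of 5 genes, all without overlap, and the macrophage markers that passed the filter on low counts for 5 of 5, 4 without overlap. Their part in the angiogenic values was not tested. The lymphatic receptor Flt4 stood at 61.8 and 53.8 against 98.1 and 140 CPM (-1.08), the tip cell gene Esm1 at 47.3 and 16.6 against 75.1 and 131 CPM and Apln at 49.8 and 20.5 against 69.1 and 350 CPM, while Vegfa was higher (143 and 155 against 95.9 and 85.6 CPM).

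The hematopoietic and endothelial factor Runx1 stood at 175 and 229 against 49.1 and 56.4 CPM (1.87 ± 0.24, edgeR adjusted p = 0.366), with 74.8 to 186 CPM in untreated tumors. The HMG-box factor Tox2 stood at 36.7 and 28.2 against 2.97 and 2.01 CPM and the carbonic anhydrase Car3, known as abundant in muscle, at 35.7 and 90.9 against 2.23 and 2.01 CPM. Tox2 and Car3 rested on few UMIs in the nonresponders and passed the filter on low counts through the responders, where they were high. Genes lower in the responders included the prostaglandin carrier Slco2a1 (187 and 197 against 370 and 581 CPM), Nxpe2 (55.5 and 70.4 against 127 and 185 CPM) and the syntrophin Sntb1 (42.5 and 56.3 against 100 and 151 CPM).

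Collagen and matrix genes were higher in endothelial-like nuclei for 21 of 25 genes (14 without overlap, beside 23.7% of all genes, median 0.45), including Col5a2 (249 and 276 against 132 and 84.6 CPM) and elastin (Eln, 67.1 and 219 against 15.6 and 39.3 CPM). This was the opposite order to fibroblast-like nuclei, and the difference between the classes was not tested. Fibroblast markers in the same nuclei were higher for 9 of 9 genes (5 without overlap, beside 23.7% of all genes, median 0.60). Col1a1, Col1a2, Col3a1, Fbn1, Postn and Col6a3 belong to both lists, and the part of the markers in the collagen values was not tested. The 9 myocyte markers tested were also all higher.

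Macrophage-like nuclei of the responders had lower values of interferon response genes, and these nuclei were few: 327 and 169 in the responders and 156 and 61 in the nonresponders. Of 7010 genes, 0 (0%) were called by edgeR, 404 had an unadjusted p under 0.05 and 2 (0.0285%) were called by DESeq2. Without responder 1, edgeR called 43 genes. Both responders lay above both nonresponders in 14.4% of genes and below in 21.1%. The 28 interferon response genes with a feature, whatever their level, summed to 335 and 543 CPM in the responders against 743 and 1565 CPM in the nonresponders, with 438 to 1121 CPM in untreated tumors. Only 10 of the listed genes passed the filter on low counts, and 0 were called.

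Herc6, an interferon-induced ubiquitin ligase, stood at 49.0 and 61.0 against 84.0 and 182 CPM (-1.15 ± 0.46). The antiviral gene Oasl2 stood at 4.74 and 15.2 against 44.2 and 72.8 CPM (-2.73 ± 0.71, edgeR adjusted p = 0.658) and rested on 5 to 20 UMIs per tumor. The RNA sensor Ddx58 (RIG-I) stood at 15.8 and 27.4 against 44.2 and 87.3 CPM. The groups did not overlap in any of these 3 genes (beside 21.1% of all genes lower without overlap), but Oasl2 and Ddx58 passed the filter through the nonresponders, where they were high.

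Genes with the smallest p in macrophage-like nuclei included Ccr2, the receptor that brings monocytes out of the marrow, at 53.7 and 54.9 against 177 and 182 CPM (-1.66 ± 0.33, edgeR adjusted p = 0.556, untreated 57.5 to 82.7). Both nonresponders lay above, and both responders below, the untreated range. Lower values in the responders were also those of Spx, the phospholipid acyltransferase Lpcat2 (70.3 and 64.0 against 208 and 298 CPM) and Otulinl (147 and 110 against 349 and 451 CPM). Higher were the neuronal glutamate receptor partner Neto2 (195 and 171 against 24.3 and 36.4 CPM), Mpped2 (233 and 165 against 13.3 and 36.4 CPM), the chondroitin synthase Chsy3 (345 and 351 against 115 and 87.3 CPM) and Myh2 (56.1 and 186 against 2.21 and 0 CPM). Myh2 rested on 1 and 0 UMIs in the nonresponders and passed the filter on low counts through the responders. Tumor markers had higher values for 5 of 5 genes, but their sums overlapped (10204 and 5602 against 5748 and 4417 CPM).

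Monocyte-lineage signals, over the 21 genes with a feature, summed to 1469 and 1473 against 2043 and 2743 CPM. For the 10 that passed the filter the median log2 fold change was 0.01 without nonresponder 2. Sirpa, the receptor for the CD47 signal that holds back phagocytosis, stood at 333 and 317 against 663 and 677 CPM (-0.98). Macrophage markers in the same nuclei, of which Csf1r is in both lists, were higher for 3 and lower for 6 of 9 genes (median -0.40).

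**Figure D5:**
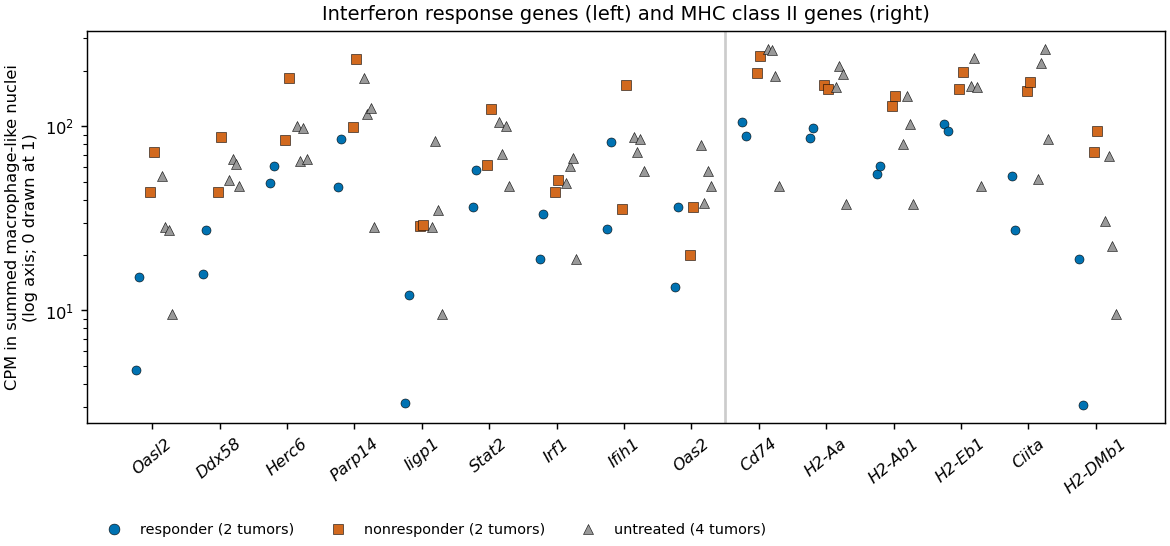
CPM in summed macrophage-like nuclei (log axis) of 9 interferon response genes and 6 MHC class II genes, 1 point per tumor. The genes drawn passed the filter on low counts, some through the nonresponders alone, and the class II genes were chosen after their values were seen; for Herc6 both responders (49.0 and 61.0 CPM) lie below both nonresponders (84.0 and 182 CPM), which hold only 156 and 61 macrophage-like nuclei.

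Myocyte-like nuclei were not tested, because nonresponder 2 had 49 of them, and their values are given side by side. Myh2 stood at 1404 and 235 against 104 and 82.5 CPM (untreated 324 to 493), the fast myosin Myh4 at 746 and 499 against 3520 and 1432 CPM, and Myh1 at 640 and 404 against 253 and 1120 CPM. The atrophy ligase Fbxo32 stood at 640 and 1719 against 614 and 931 CPM. Myh2 was higher and Myh4 lower in both responders, while Myh1 and Fbxo32 overlapped.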

How the data were processed

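Nuclei of 8 tumors were profiled with the 10x Chromium 3′ kit with on-chip multiplexing. The authors deposited 1 matrix of raw UMI counts per tumor over 19059 features; the submitters' processing notes name bcl2fastq 2.20, Cell Ranger 7.0.1 and mm39, while the matrix headers name Cell Ranger 9.0.1. How the features were filtered is not given in the sources used here. The study's methods used scDblFinder and Harmony; here no doublets were removed and no integration was run, and removing the highest Scrublet scores (3.88% to 9.16% of nuclei per tumor) was an alternative.

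Nuclei with at least 1000 UMIs and under 5% of UMIs in mt- genes were clustered with scanpy 1.11.5 (2000 variable genes without the markers, 30 principal components, 40 neighbors, Leiden resolution 1). A cluster was named where at least 3 markers were detected in 5% of its nuclei and raised 1.5-fold over the 10th percentile of clusters, after adding 20 CPM; markers of a second class were allowed. Counts were summed per tumor and class and tested with edgeR 4.0.16 in R 4.3.3 (quasi-likelihood, TMM, filterByExpr), with DESeq2 1.42.0 as an alternative, in classes with at least 50 nuclei in each tumor. CPM are summed counts scaled to the total of that tumor and class, without TMM. The SE printed with a log2 fold change was derived from the edgeR test. It is the absolute log2 fold change divided by the square root of the quasi-likelihood F statistic. The edgeR fits were tested on simulated data.

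Of each comparison the 4 genes with the smallest p in each direction were named, the 4 members of a list with the smallest p, the 3 marker genes with the highest mean, and Ercc3, Polr2a, Myc, Vgf, Etv1, Etv4, Etv5, Dusp4, Mcl1, Abcb1a and Alpl. Of some lists fewer are printed. A list member that the rule names is not reported here. Spx and Myh2 by class, the genes of myocyte-like nuclei and those of the closing section were chosen after values were seen. The response, the lists and the members were chosen with earlier results of these data known. Coordinates are those of GENCODE vM39 on GRCm39, in which 19043 of 19059 features were found, and promoters are those of RefSeq on GRCm38.p6.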

Additional observations from a re-analysis of the deposited data

How the results depend on the processing

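No paired analysis was possible because the labels give the tumors no replicate numbers. No gene was called by edgeR over all nuclei or in tumor-like nuclei under any alternative run with edgeR, including all 8 tumors in 1 fit, at least 2000 UMIs, no filter on nuclei, doublets removed and each tumor left out. DESeq2 called 135 genes over all nuclei, 41 in tumor-like, 25 in fibroblast-like, 27 in endothelial-like and 2 in macrophage-like nuclei. Without a filter on low counts edgeR called 2 genes in fibroblast-like, 306 in endothelial-like and 78 in macrophage-like nuclei and 5 in the interaction. Leaving out each tumor in turn gave 0 to 482 calls in endothelial-like nuclei (482 without responder 1, 88 without responder 2), 0 to 43 in macrophage-like nuclei (43 without responder 1), 0 to 1 in fibroblast-like nuclei and 0 to 7 in the interaction. A fit without 1 tumor left that group with a single tumor, assumed to vary like the other 2. Leaving out each tumor moved the log2 fold change of Vgf from -1.01 to 0.38, that of Etv1 from -0.39 to 0.32 and that of Etv4 from -0.22 to 0.45.

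Leaving clusters with markers of a second class unnamed turned the tumor-like share difference to 27.7 percentage points, since it left 55.7% of responder 1 (nearly all in the cluster c0), 0.356% of nonresponder 1 and 0% of the other 2 tumors as tumor-like, and tests within tumor-like nuclei could not be run with it. Leaving out the tumor-like cluster led by Mecom and Ldb2, an alternative chosen after seeing the data, turned the summed interferon list difference to 2.65 CPM and the log2 fold change of Vegfc to 0.065. Myocyte-like nuclei had too few nuclei in nonresponder 2 for any fit. The cause was not tested for Vegfc and the interferon sum. Of the values that answer a comparison, 222 stayed the same, 18 moved and 2 reversed. A difference whose change was below the pooled SD between tumors counted as the same even where its sign turned. Leaving out each tumor gave -0.99 to 1.49 percentage points for the endothelial-like share and -640 to 241 CPM for the summed mitotic list.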

Other observations

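In macrophage-like nuclei, 6 genes of antigen presentation by MHC class II were picked after their values had been seen and from no list fixed beforehand, so their common direction supports nothing. Both responders lay below both nonresponders in 21.1% of all genes tested in these nuclei. Class II molecules present peptides to CD4+ T cells. The invariant chain Cd74 stood at 106 and 88.4 CPM in the responders against 195 and 240 CPM in the nonresponders (log2 fold change -1.07 ± 0.32, edgeR adjusted p = 0.707). The class II chains H2-Ab1 (55.3 and 61.0 against 128 and 146 CPM), H2-Aa (86.9 and 97.6 against 168 and 160 CPM) and H2-Eb1 (103 and 94.5 against 159 and 197 CPM) showed the same order.

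Their master regulator Ciita stood at 53.7 and 27.4 against 155 and 175 CPM (-1.86 ± 0.40), on 68 and 9 UMIs against 70 and 24 UMIs. H2-DMb1, which helps load peptides, rested on 1 UMI in responder 2. The integrin Itgax, known from dendritic cells and some macrophages, stood at 11.8 and 12.2 against 44.2 and 65.5 CPM, on 15 and 4 against 20 and 9 UMIs. The inflammatory cytokine Il1b stood at 55.3 and 45.7 against 95.1 and 87.3 CPM. Itgax and Il1b were also picked after their values had been seen. H2-DMb1 and Itgax passed the filter on low counts through the nonresponders, where they were high. None of these genes was called by edgeR, and untreated tumors ranged from 47.6 to 263 CPM for Cd74, across both groups.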
